A study of Homo sapiens with 19 samples.

Results

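Lysosomes are the acid compartments in which cells break down proteins, sugars, lipids and engulfed material, and macrophages carry many of them. Their enzymes are served by a proton pump that acidifies the lumen and by membrane proteins that line it. Many of their genes are controlled by TFEB, TFE3 and MITF, related transcription factors that bind a short palindromic element in the promoters, often called the CLEAR element. The 50 genes described here were listed by name, out of 20007 protein-coding genes of GENCODE release 44, for their known roles. Earlier results of these data were known when they were chosen. They fall into 11 cathepsins and other proteases, 13 glycosidases and sulfatases, and 8 genes of a lipid group. The lipid group holds lipid hydrolases and their cofactors, and also NPC1, NPC2 and GRN, which are not lipid hydrolases. The other members are 8 membrane proteins, 7 proton pump subunits and the 3 transcription factors named above.

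The cells were MOLM-13, a human acute myeloid leukaemia line. One group received Corin, an inhibitor that joins the actions of an LSD1 blocker and a histone deacetylase blocker and is directed at the CoREST complex, at 0.1 µM for 24 h. The other group received the vehicle DMSO for the same time, and no group carried an engineered allele. H3K27ac, a mark of active promoters and enhancers, H3K4me2, a mark of promoters and enhancers that LSD1 can remove, and H3K4me3, a mark of active promoters, were mapped by CUT&RUN. In this assay a nuclease tethered by an antibody cuts out the chromatin that bears a mark. Each mark had 2 libraries per treatment, so 12 peak lists were analysed out of 19 libraries, and the other 7 (4 of cells given ATRA and Corin, 2 with IgG and 1 for LSD1) are not used here. The labels do not say that replicates came from separate cultures, so the p-values measure only the spread between these libraries, which may be technical.

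The measure was the length of sequence under peaks, in bp, within 10 kb on either side of a gene's start, and within 2 kb as the promoter window. It counts where peaks were called and not how strong the signal was, and in a mixed culture more cells with a mark and more of the mark per cell cannot be told apart. Corin gave longer H3K27ac lists, of 34424 and 30029 peaks against 17599 and 19995 for DMSO. For H3K4me2 they were 41152 and 40042 peaks long against 30896 and 32299, and the 4 H3K4me3 lists ranged from 11104 to 11883 peaks. Values are therefore also given at a matched number, in which each list was cut to its highest scoring peaks until all 4 lists of a mark were as long as the shortest. Of 8 myeloid markers fixed for the line, 7 had H3K4me2 and H3K4me3 peaks within 2 kb of the start in all 4 lists, the exception being CSF1R, with no peak of any mark, and 4 had H3K27ac there in all 4 lists. None of 3 T cell and 3 epithelial markers had a peak, while PAX5 of the B cell list and COL1A1 of the fibroblast list had H3K4me2 in all 4 lists, and KLF1 of the erythroid list in some.

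RefSeq promoters, from 250 bases before to 50 after the start on GRCh38, were matched for 34 of the 50 genes. The E-box CACGTG, the core of the CLEAR element, was found in 10 of these 34 promoters (29.4%) against 8.89% of 15345 protein-coding promoters. TCACGTGA, which contains it, was in 7 (20.6% against 1.47%). The full palindrome, with a G before and a C after those letters, was in 3 (8.82% against 0.593%), those of GAA, GALNS and MCOLN1. TCATGTGA, a variant bound by MITF, was in PPT1, TPP1, CD63 and GRN (11.8% against 0.938%). Both strands were searched for each. The 34 promoters were also richer in G and C, with a median of 69.7% against 63% in all promoters, and the part of this in the motif counts was not tested. The stretches below show the E-box in capitals, 5′ to 3′ on the strand of the gene, for 5 members in which it lies upstream of the annotated gene; they are given because this is the element through which the 3 factors are known to act.
ATP6V0D1, chr16:67481191-67481236, minus strand: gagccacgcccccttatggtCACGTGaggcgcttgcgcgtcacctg
GAA, chr17:80101485-80101530, plus strand: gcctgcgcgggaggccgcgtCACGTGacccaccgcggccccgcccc
LAMP1, chr13:113297191-113297236, plus strand: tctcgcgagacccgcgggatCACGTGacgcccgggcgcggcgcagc
MCOLN1, chr19:7522563-7522623, plus strand: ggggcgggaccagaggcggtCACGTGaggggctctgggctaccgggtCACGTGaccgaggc
NEU1, chr6:31862922-31862967, minus strand: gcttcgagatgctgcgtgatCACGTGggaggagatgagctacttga
The first base of the E-box shown lies 59 bases before the RefSeq start in ATP6V0D1, 76 in GAA, 28 in LAMP1 and 126 in NEU1, and MCOLN1 shows a pair, at 41 and 14 bases. GAA holds a further copy, at 31 bases, and LAMP1 holds 6 in all; the other 5 promoters with an E-box are those of CD63, CLN3, CTSA, CTSD and GALNS. An E-box is a match of letters and does not show that a factor was bound.

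Most of these genes carried at least H3K4me2 in every list. In the 2 kb window H3K4me3 was present in all 4 lists at 36 of 50 genes (72%, against 47.0% of all protein-coding genes), H3K4me2 at 44 (88% against 58.4%) and H3K27ac at 15 (30% against 26.1%). Within 10 kb, 12 genes had no H3K27ac peak in any list: CTSK, CTSL, LGMN, FUCA1, SGSH, LIPA, SMPD1, LAMP3, SCARB2, MCOLN1, ATP6V0D2 and MITF. H3K4me2 was missing from CTSK, SCARB2 and ATP6V0D2. H3K4me3 was missing from these 3 and from CTSC, CTSL, LGMN, SGSH, LIPA and LAMP3. CTSK and ATP6V0D2, a protease and a pump subunit best known from osteoclasts, and SCARB2 thus had no peak of any of the 3 marks. For SCARB2, ATP6V0D2, CTSC and LIPA the annotated gene start is far from the canonical one. As given further on, SCARB2 and CTSC did have H3K4me3 around the canonical start, LIPA had H3K4me2 there in all 4 lists, and ATP6V0D2 had no H3K4me3 peak.

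After Corin, 24 of the 50 lysosomal genes had more sequence under H3K27ac peaks in both libraries than in either DMSO library and 26 had more under H3K4me2 peaks, while limma called none. H3K27ac coverage within 10 kb was higher in both Corin libraries than in both DMSO libraries at 24 of 50 genes (48%, against 28.7% of 20007 genes) and lower in both at none (against 0.345%). For H3K4me2 the counts were 26 higher (52% against 27.8%) and 1 lower (against 2.69%), and for H3K4me3 13 higher (26% against 14.4%) and 2 lower (4% against 4.63%). Within 2 kb they were 21 higher and 0 lower for H3K27ac (21.6% and 0.305% of all genes), 16 and 2 for H3K4me2 (17.5% and 4.41%), and 14 and 3 for H3K4me3 (12% and 4.77%). These counts order the 4 libraries and are no test; with 2 libraries against 2 the exact two-sided permutation test cannot go below p = 0.333. limma on log2 coverage called no gene of any mark in either window at an adjusted p below 0.05, so 0% of the 7145, 12938 and 10112 genes tested within 10 kb for H3K27ac, H3K4me2 and H3K4me3 were called. For H3K27ac within 10 kb the same fit also called no gene in simulated data that held changed genes, so the absence of calls there sets no limit on the size of a change. At an unadjusted p below 0.05 it marked 1979 genes higher (27.7%) and 0 lower for H3K27ac, 1830 higher (14.1%) and 20 lower (0.155%) for H3K4me2, and 587 higher (5.8%) and 95 lower (0.939%) for H3K4me3. Of the 50 lysosomal genes, 26, 46 and 36 passed the filter on low coverage in the same order. For H3K27ac 12 of the 26 had a mean of at least 500 bp with Corin alone and passed because of it, so nothing is drawn from the 26 as a group. Over all 50 genes the median difference in coverage was 425.75 bp for H3K27ac, 469.25 bp for H3K4me2 and 97.75 bp for H3K4me3, against 0, 57 and 0 bp over all genes. With the replicate number as a block, limma called 335 genes higher for H3K27ac (4.69%) within 10 kb, 3 lysosomal genes among them (ATP6V0C, ATP6V0D1 and CTSA, of which CTSA passed the filter through Corin alone), and 815 higher and 1 lower for H3K4me2 (6.3% higher), 9 lysosomal genes among the higher, but 0 (0%) for H3K4me3 and none of any mark within 2 kb.

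The same counts were made among genes with an active promoter. Among genes with H3K4me3 at the promoter in all 4 lists, H3K27ac was higher at 22 of 36 lysosomal genes (61.1%) and at 50.6% of 9401 genes. H3K4me2 was higher at 22 of 36 (61.1%) and at 37.1% of the 9401, and H3K4me3 at 10 of 36 (27.8%) and 26.3%. At the matched number the H3K27ac count over all 50 was 13 higher and 2 lower (16.8% and 1.67% of all genes), and 11 of 36 (30.6%) against 30.1% among genes with promoter H3K4me3. For H3K4me2 it was 24 higher and 1 lower (21.6% and 5.23%), and 20 of 36 (55.6%) against 28.9%. For H3K4me3 it was 13 and 2 (13.5% and 5.08%), and 10 of 36 (27.8%) against 25.1%. Thus the H3K27ac share was near that of other active genes once list lengths were equal, while the H3K4me2 share was still above it; neither gap was tested. The median H3K27ac difference of the 50 was also near that of the 9401 genes, at 425.75 against 405.5 bp with all peaks and 172 against 177 bp at the matched number. The 20 members whose 10 kb window also holds the start of another protein-coding gene share that sequence with it; among the other 30, 10 were higher for H3K27ac (33.3%), 15 for H3K4me2 (50%) and 10 for H3K4me3 (33.3%). Of the 13471 genes with no other start in the window, 22.6%, 25.8% and 11% were higher in the same order.

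**Figure D1:**
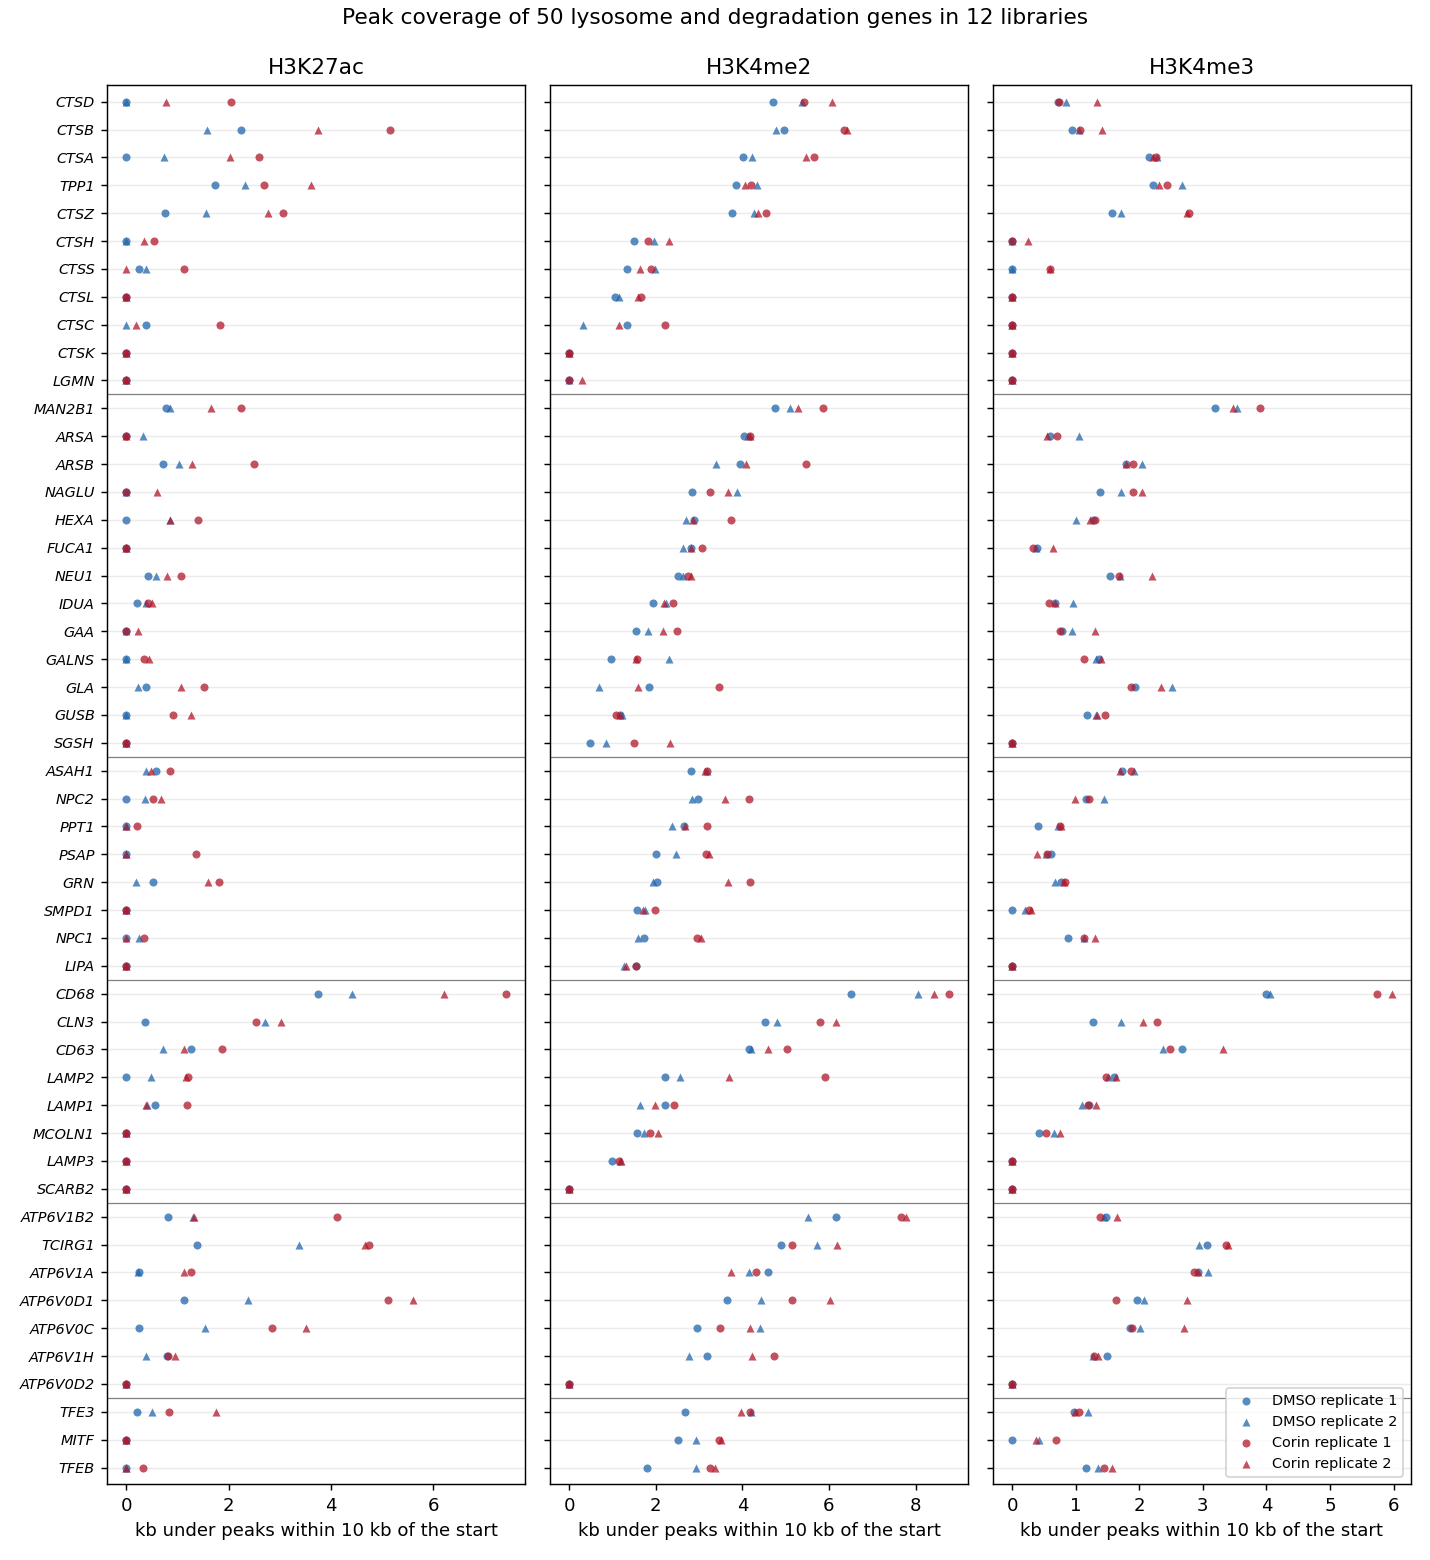
Sequence under peaks (kb) within 10 kb of the start of each of the 50 genes, one panel per mark, with 1 point per library: circles are replicate 1, triangles replicate 2, blue DMSO and red Corin. Genes are grouped by role, with lines between groups and in order of mean H3K4me2 coverage within each. Red points lie to the right of both blue points at 24 genes for H3K27ac, 26 for H3K4me2 and 13 for H3K4me3.

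By role, the counts are to be read against the 28.7%, 27.8% and 14.4% of all genes that were higher for H3K27ac, H3K4me2 and H3K4me3, and H3K27ac counts at the matched number against 16.8% higher and 1.67% lower. Among the 11 proteases, 6 were higher for H3K27ac, 5 for H3K4me2 and 3 for H3K4me3, and none was lower. With equal list lengths 4 were higher and 1 lower for H3K27ac, and the median difference was 357 bp in place of 821.5 bp. CTSB, a cysteine protease, had 5148 and 3753 bp of H3K27ac with Corin against 2244 and 1569 bp with DMSO, a log2 difference of 1.04 (SE 0.27; limma, adjusted p = 0.0828). Its H3K4me2 covered 6349 and 6414 bp with Corin against 4954 and 4768 bp with DMSO, and its H3K4me3 1073 and 1407 bp against 935 and 1051 bp. The groups did not overlap in any of the 3 marks, nor at the matched number. CTSA, the carboxypeptidase that shields NEU1 from breakdown, had 2591 and 2017 bp of H3K27ac after Corin against 0 and 729 bp. Its log2 difference of 1.83 (SE 0.45) had an adjusted p of 0.0793 in limma, and of 0.0472 with the replicate number as a block; as CTSA passed the coverage filter only because it was high after Corin, neither p is taken as support. The mean difference was 1939.5 bp with all peaks and 357 bp at the matched number, where the groups overlapped.

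CTSZ, a cysteine carboxypeptidase on chromosome 20 with no other protein-coding start in its window, was higher in all 3 marks. Its H3K4me3 covered 2786 and 2748 bp with Corin against 1571 and 1705 bp with DMSO, a log2 difference of 0.61 (SE 0.07; limma, adjusted p = 0.184). Its H3K27ac covered 3059 and 2774 bp against 748 and 1554 bp. CTSS, which trims the invariant chain in antigen presentation, had H3K4me3 peaks of 590 and 593 bp after Corin and none in either DMSO list. That peak, at chr1:150765212-150765814, covers an exon of CTSS just inside its start and was the only one of 53 H3K4me3 regions in the 50 windows present in both Corin lists and neither DMSO list (1.89%, against 1.5% of 12089 genome-wide). H3K4me2 covered parts of the same sequence in all 4 lists. H3K27ac at CTSS ran the other way in 1 library, with 1126 and 0 bp after Corin against 257 and 376 bp, and at the matched number it was 0 and 0 bp against 257 and 376 bp. CTSC, which activates granule proteases, had 2210 and 1142 bp of H3K4me2 with Corin against 1326 and 316 bp with DMSO. These groups overlapped, yet each Corin library lay above the DMSO library of its own number, and the log2 difference of 0.79 (SE 0.43) had an adjusted p of 0.496 in limma and of 0.0455 with the replicate block.

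Of the 13 glycosidases and sulfatases, 7 were higher for H3K27ac, 6 for H3K4me2 and 2 for H3K4me3, with GUSB lower for H3K4me2 and IDUA lower for H3K4me3. With lists of equal length 3 were higher and 1 lower for H3K27ac, with a median difference of 32.5 bp in place of 392.5 bp. SGSH, a sulfatase of heparan sulfate breakdown, had no H3K27ac or H3K4me3 peak, but its H3K4me2 covered 1505 and 2329 bp after Corin against 476 and 852 bp after DMSO. The log2 difference was 1.05 (SE 0.26; limma, adjusted p = 0.157, and 0.00447 with the replicate block). GLA, the galactosidase lacking in Fabry disease, had 3452 and 1579 bp of H3K4me2 with Corin against 1842 and 686 bp with DMSO; the groups overlapped, and the adjusted p in limma was 0.479 and, with the replicate block, 0.01. Its H3K27ac did not overlap, at 1509 and 1069 bp against 379 and 220 bp.

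NAGLU, a second enzyme of heparan sulfate breakdown, had 1904 and 2047 bp of H3K4me3 after Corin against 1373 and 1709 bp (log2 difference 0.28, SE 0.11; limma, adjusted p = 0.704). GUSB, a glucuronidase, was split between marks. Its H3K27ac covered 917 and 1256 bp after Corin and was absent after DMSO, while its H3K4me2 covered 1082 and 1161 bp against 1175 and 1213 bp, a mean difference of -72.5 bp that limma did not call (adjusted p = 0.919). IDUA, which also acts on heparan sulfate, had 576 and 671 bp of H3K4me3 against 676 and 960 bp (limma, adjusted p = 0.884). Its H3K27ac was higher with all peaks, at 421 and 510 bp against 205 and 384 bp, and lower at the matched number, at 0 and 0 bp against 205 and 384 bp.

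Of the 8 genes of lipid handling, 2 were higher for H3K27ac, 5 for H3K4me2 and 4 for H3K4me3, and none was lower. None was higher for H3K27ac at the matched number, and the H3K4me2 and H3K4me3 counts were the same. GRN encodes progranulin, a protein that is taken to the lysosome and cut there, and lies at chr17:44345246-44353106. Its H3K4me2 covered 4186 and 3672 bp with Corin against 2030 and 1933 bp with DMSO, with a log2 difference of 0.83 (SE 0.12; limma, adjusted p = 0.0812, and 0.00131 with the replicate block). Its H3K27ac covered 1816 and 1592 bp against 525 and 195 bp, and within 2 kb 707 and 819 bp against none. The H3K27ac groups overlapped at the matched number, with 1816 and 0 bp against 525 and 0 bp within 10 kb. H3K4me3 was higher by less, at 826 and 807 bp against 760 and 670 bp. NPC1, which moves cholesterol out of the lysosome, had 2957 and 3050 bp of H3K4me2 after Corin against 1720 and 1595 bp (log2 difference 0.70, SE 0.12; limma, adjusted p = 0.104, and 0.0104 with the replicate block). H3K27ac at NPC1 was 341 and 0 bp against 0 and 251 bp, and those groups overlapped. PSAP, the precursor of the saposins, and NPC2, the partner of NPC1, also had higher H3K4me2 in both Corin libraries, with 3148 and 3226 bp against 2008 and 2465 bp for PSAP.

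Of the 8 membrane proteins, CD68 and LAMP2 were higher for H3K27ac, 5 were higher for H3K4me2, and CD68 and CLN3 for H3K4me3. The H3K27ac groups overlapped at LAMP2 at the matched number, which left CD68 within 10 kb. Within 2 kb at that number the 1 membrane protein gene higher for H3K27ac was CD63, and CD68 was not. CD68, the glycoprotein used as a macrophage marker, lies at chr17:7579491-7582111 and had the widest H3K27ac, H3K4me2 and H3K4me3 coverage of the 50 genes. H3K4me3 covered 5740 and 5968 bp with Corin against 3997 and 4054 bp with DMSO, with a log2 difference of 0.49 (SE 0.06; limma, adjusted p = 0.184). Its 10 kb window also holds the starts of EIF4A1 and MPDU1; within 2 kb of the CD68 start, H3K4me3 covered 1421 and 1486 bp after Corin against 0 and 213 bp. H3K27ac covered 7412 and 6205 bp against 3749 and 4402 bp (log2 difference 0.67, SE 0.22; limma, adjusted p = 0.117). CD68 was the one RefSeq promoter of the 34 that H3K4me3 touched in both Corin lists and in neither DMSO list, counting an overlap of at least 1 bp; the overlap was 9 and 10 bp of the 300 bases, and 0.326% of 15345 promoters did the same.

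LAMP2, a major protein of the lysosomal membrane, lies at chrX:120426148-120469365. It had 5904 and 3686 bp of H3K4me2 with Corin against 2207 and 2569 bp with DMSO (log2 difference 0.85, SE 0.21; limma, adjusted p = 0.16, and 0.00188 with the replicate block). Its H3K4me3 was near equal in all 4 lists, between 1471 and 1633 bp. CLN3, lacking in juvenile Batten disease, had 2273 and 2056 bp of H3K4me3 after Corin against 1275 and 1715 bp (log2 difference 0.43, SE 0.13; limma, adjusted p = 0.594). LAMP1, the close relative of LAMP2, had 2425 and 1985 bp of H3K4me2 after Corin against 2201 and 1636 bp, and its groups overlapped in all 3 marks.

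The 7 listed proton pump subunits had the largest median H3K27ac difference of the 6 roles, 1666.5 bp with all peaks and 824 bp at the matched number. The 11 other pump genes, counted further on, had medians of 458 and 221.5 bp in the same order. Of 7 subunits, 6 were higher for H3K27ac, the exception being ATP6V0D2 with no peak, against 3 for H3K4me2 and 1 for H3K4me3. At the matched number 4 were higher for H3K27ac, with ATP6V0C and ATP6V1B2 overlapping. Of the 7 windows, 5 also hold the start of another gene, the exceptions being ATP6V0D2 and ATP6V1B2, and share that sequence with it. ATP6V0D1, a subunit of the membrane sector, lies at chr16:67438014-67481181 on the minus strand. Its H3K27ac covered 5118 and 5595 bp with Corin against 1122 and 2373 bp with DMSO, with a log2 difference of 1.44 (SE 0.31; limma, adjusted p = 0.0674, and 0.0393 with the replicate block). Its H3K4me2 covered 5153 and 6034 bp against 3633 and 4431 bp (log2 difference 0.43, SE 0.13; limma, adjusted p = 0.228, and 0.046 with the block). Over the gene body in place of the window, that H3K4me2 difference turned to -36 bp. Its H3K4me3 overlapped, at 1635 and 2749 bp against 1957 and 2073 bp. The window holds the start of AGRP too, and at the matched number the H3K27ac groups still did not overlap, at 3079 and 4375 bp against 1122 and 2146 bp.

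ATP6V0C, which forms the rotating ring of the pump, had 2853 and 3521 bp of H3K27ac after Corin against 254 and 1535 bp (log2 difference 1.57, SE 0.45; limma, adjusted p = 0.098, and 0.0461 with the block). Its mean difference was 2292.5 bp with all peaks and 110 bp at the matched number, where the groups overlapped. TCIRG1, a membrane subunit that osteoclasts and macrophages use, had 4745 and 4663 bp against 1372 and 3376 bp (log2 difference 0.95, SE 0.35; limma, adjusted p = 0.14). At both genes the first DMSO library was far below the second. ATP6V1B2 and ATP6V1H, subunits of the sector that splits ATP, were higher for H3K4me2. ATP6V1B2 had 7653 and 7783 bp after Corin against 6171 and 5515 bp (limma, adjusted p = 0.152, and 0.0386 with the block), and ATP6V1H 4738 and 4232 bp against 3177 and 2777 bp (adjusted p = 0.146 in limma, and 0.0274 with the block). ATP6V1A, the subunit that binds ATP, was higher for H3K27ac, at 1258 and 1118 bp against 247 and 220 bp, all but 261 bp in 1 Corin list lying in a region that overlaps its neighbour NAA50 and not ATP6V1A itself. It was slightly lower for H3K4me3, at 2865 and 2921 bp against 2928 and 3078 bp (limma, adjusted p = 0.948).

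The 3 factors that drive lysosomal genes were marked differently. TFEB had 3240 and 3372 bp of H3K4me2 after Corin against 1803 and 2937 bp, and 1437 and 1562 bp of H3K4me3 against 1163 and 1350 bp (limma, adjusted p = 0.411 and 0.848). H3K27ac was called near TFEB in 1 Corin library only, over 324 bp. TFE3 had 829 and 1750 bp of H3K27ac after Corin against 208 and 500 bp, with overlapping groups for H3K4me2 (4166 and 3959 bp against 2682 and 4198 bp) and for H3K4me3 (1043 and 980 bp against 971 and 1186 bp). MITF had 3468 and 3513 bp of H3K4me2 against 2510 and 2937 bp (limma, adjusted p = 0.33), H3K4me3 of 689 and 373 bp against 0 and 425 bp, and no H3K27ac peak.

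**Figure D2:**
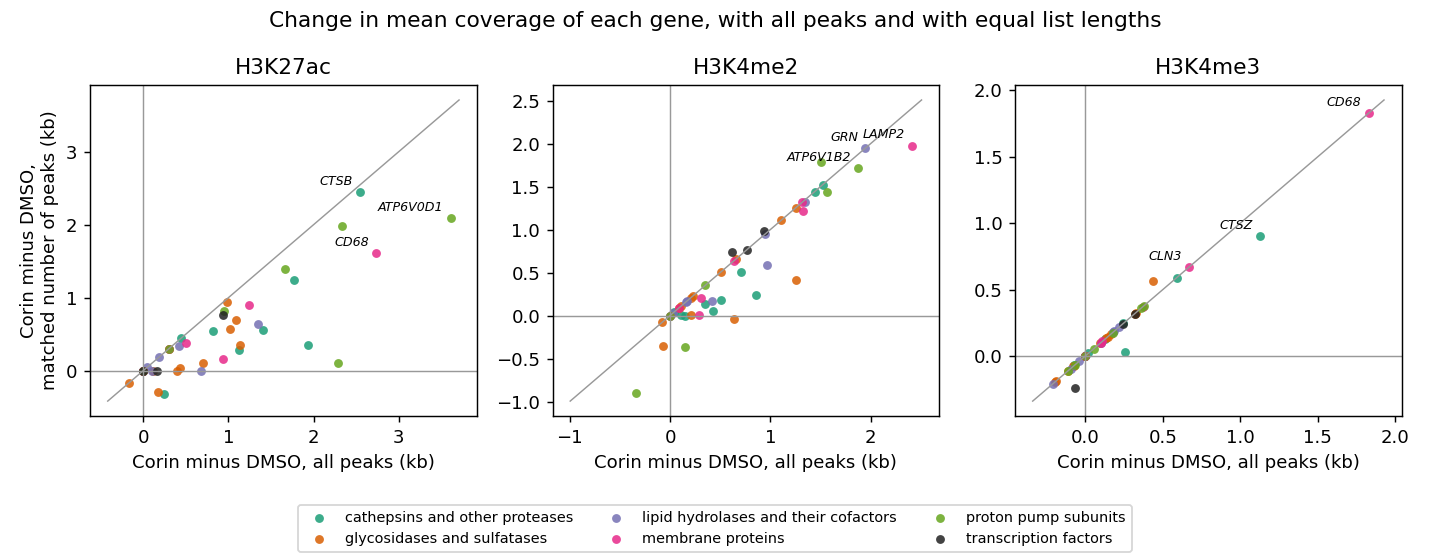
Difference in mean coverage within 10 kb, Corin minus DMSO (kb), for each of the 50 genes with all peaks (horizontal axis) and with each list cut to the same number of peaks (vertical axis), coloured by role, 1 panel per mark; the diagonal marks equal values. For H3K27ac most points lie below the diagonal, while H3K4me2 and H3K4me3 points lie mostly on or just below it; CD68 stands apart for H3K4me3.

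Within 10 kb CTSB, CTSZ, GRN and CD68 were higher in all 3 marks, 4 of 50 genes (8%) against 4.31% of all genes. At the matched number CTSB and CD68 were (4% against 2.22%), though CD68 was then not higher for H3K27ac within 2 kb. A further 16 genes (32% against 15.1%) were higher in 2 marks. The extra H3K4me2 lay mostly away from the promoter. Summed over the 50 genes, H3K4me2 between 2 and 10 kb from the start covered 74.3 and 71.6 kb after Corin and 45.8 and 50.2 kb after DMSO, 1.52 times as much, against 1.29 times over all genes. Within 2 kb it covered 96.8 and 91.8 kb against 84.2 and 90.4 kb, 1.08 times as much (1.06 over all genes). H3K27ac covered 68.8 and 55.8 kb against 19.7 and 30.4 kb within 10 kb, and its ratio was 2.43 within 2 kb and 2.56 beyond it. Over all genes those ratios were 1.59 and 2.07. H3K4me3 covered 63.2 and 68.8 kb against 55.3 and 60.8 kb, a ratio of 1.14 against 1.05 over all genes. These sums grow with the length of the list. As a share of all sequence covered in a list, the 50 windows held 0.361% and 0.388% for H3K4me2 after Corin against 0.389% and 0.385% after DMSO, which overlap. For H3K27ac the shares were 0.264% and 0.277% against 0.178% and 0.242%, which do not overlap.

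**Figure D3:**
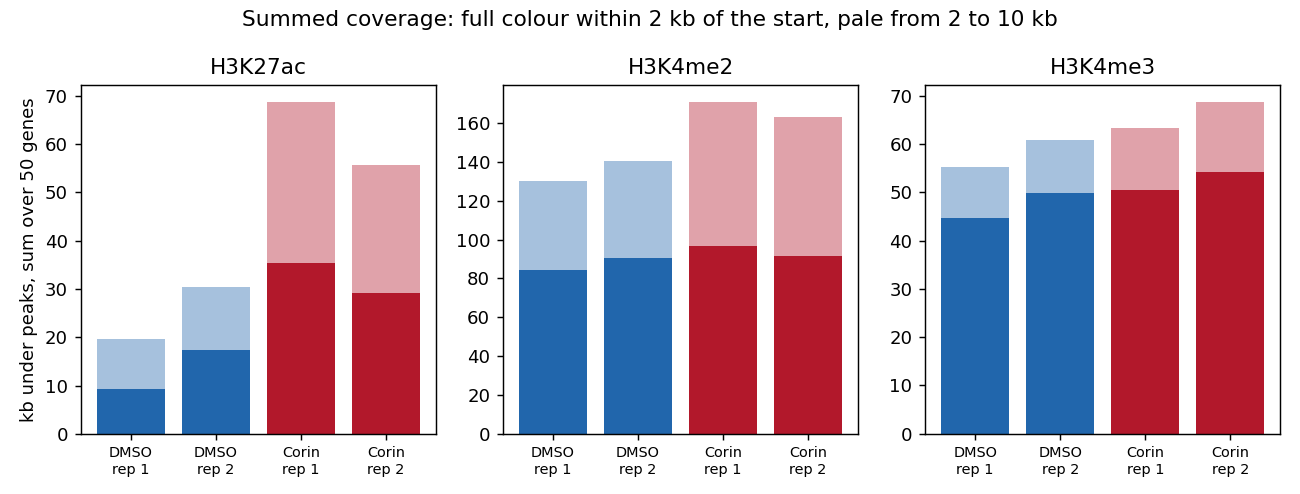
Sequence under peaks summed over the 50 genes (kb), 1 bar per library, with full colour for the 2 kb promoter window and pale colour for the flanks out to 10 kb; blue is DMSO and red Corin. The pale parts of the H3K4me2 bars are 74.3 and 71.6 kb after Corin and 45.8 and 50.2 kb after DMSO, while the full parts differ little.

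Peaks found in both Corin lists and in neither DMSO list located some of these differences. In the 10 kb windows there were 13 such H3K27ac regions of 115 (11.3%, against 11.5% of 41575 regions genome-wide), at 12 genes, and 9 such H3K4me2 regions of 116 (7.76% against 9.64%), at 8 genes. For these marks the lysosomal windows held such regions at no higher share than the genome, and none held a region of the opposite kind, of which the genome has 0.18%, 0.158% and 0.29% for H3K27ac, H3K4me2 and H3K4me3. The H3K27ac regions were near CTSH, ATP6V0D1, ATP6V0C, GRN, CD68, MAN2B1, CTSZ, GUSB, ATP6V1B2, GLA, LAMP2 and TFE3, with a pair at GUSB. At GRN the region, chr17:44345224-44345930, covers the start and an exon of the gene, and this sequence bore H3K4me2 and H3K4me3 in all 4 lists. At TFE3 it is chrX:49042209-49043605, over the start of the gene. The H3K4me2 regions were near CTSC, NPC2, ATP6V0D1, GAA, SGSH, NPC1, CTSL and LAMP2, with a pair at CTSL, and 8 of the 9 lay more than 2 kb from the start. At NPC1 the region was intronic, at chr18:23579066-23579978, centred 6984 bp into the gene, and at LAMP2 also, at chrX:120462231-120463167, 6666 bp into it.

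The region upstream of ATP6V0D1 was the one where H3K27ac (chr16:67486362-67487372) and H3K4me2 (chr16:67486544-67487351) both appeared in the Corin lists alone. It is intergenic, with its H3K27ac centre at -5686 bp from the start, and had no H3K4me3. The 300 bases at its centre are shown because 2 marks gained a peak there; they hold no match to the E-box, to the AP-1 site TGAGTCA, to the PU.1 site GAGGAAGT or to the C/EBP site TTGCGCAA on either strand. Such a result says only that these letters are not in the window.
ATP6V0D1 upstream, chr16:67486798-67487097, plus strand: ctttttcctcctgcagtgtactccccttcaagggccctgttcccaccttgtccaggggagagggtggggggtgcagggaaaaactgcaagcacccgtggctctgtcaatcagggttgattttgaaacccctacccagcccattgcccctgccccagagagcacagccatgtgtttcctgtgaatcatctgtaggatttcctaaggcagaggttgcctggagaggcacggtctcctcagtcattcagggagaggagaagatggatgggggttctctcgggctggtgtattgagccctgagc
In each H3K4me2 region the 300 bases at its centre were searched, and longer regions were not searched to their ends. The AP-1 site was in 2 of these 9 central stretches, in an intron of NPC2 and upstream of CTSL, as in 13.3% of the 4089 such stretches genome-wide and 8.36% of those of all 42421 H3K4me2 regions. The other 3 motifs were in none of the 9 central stretches. Capitals mark the site, which reads as its reverse complement at CTSL.
NPC2, chr14:74488946-74489012, plus strand: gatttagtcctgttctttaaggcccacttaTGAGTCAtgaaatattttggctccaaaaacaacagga
CTSL, chr9:87722852-87722918, plus strand: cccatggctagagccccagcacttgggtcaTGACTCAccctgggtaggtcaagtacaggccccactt

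**Figure D4:**
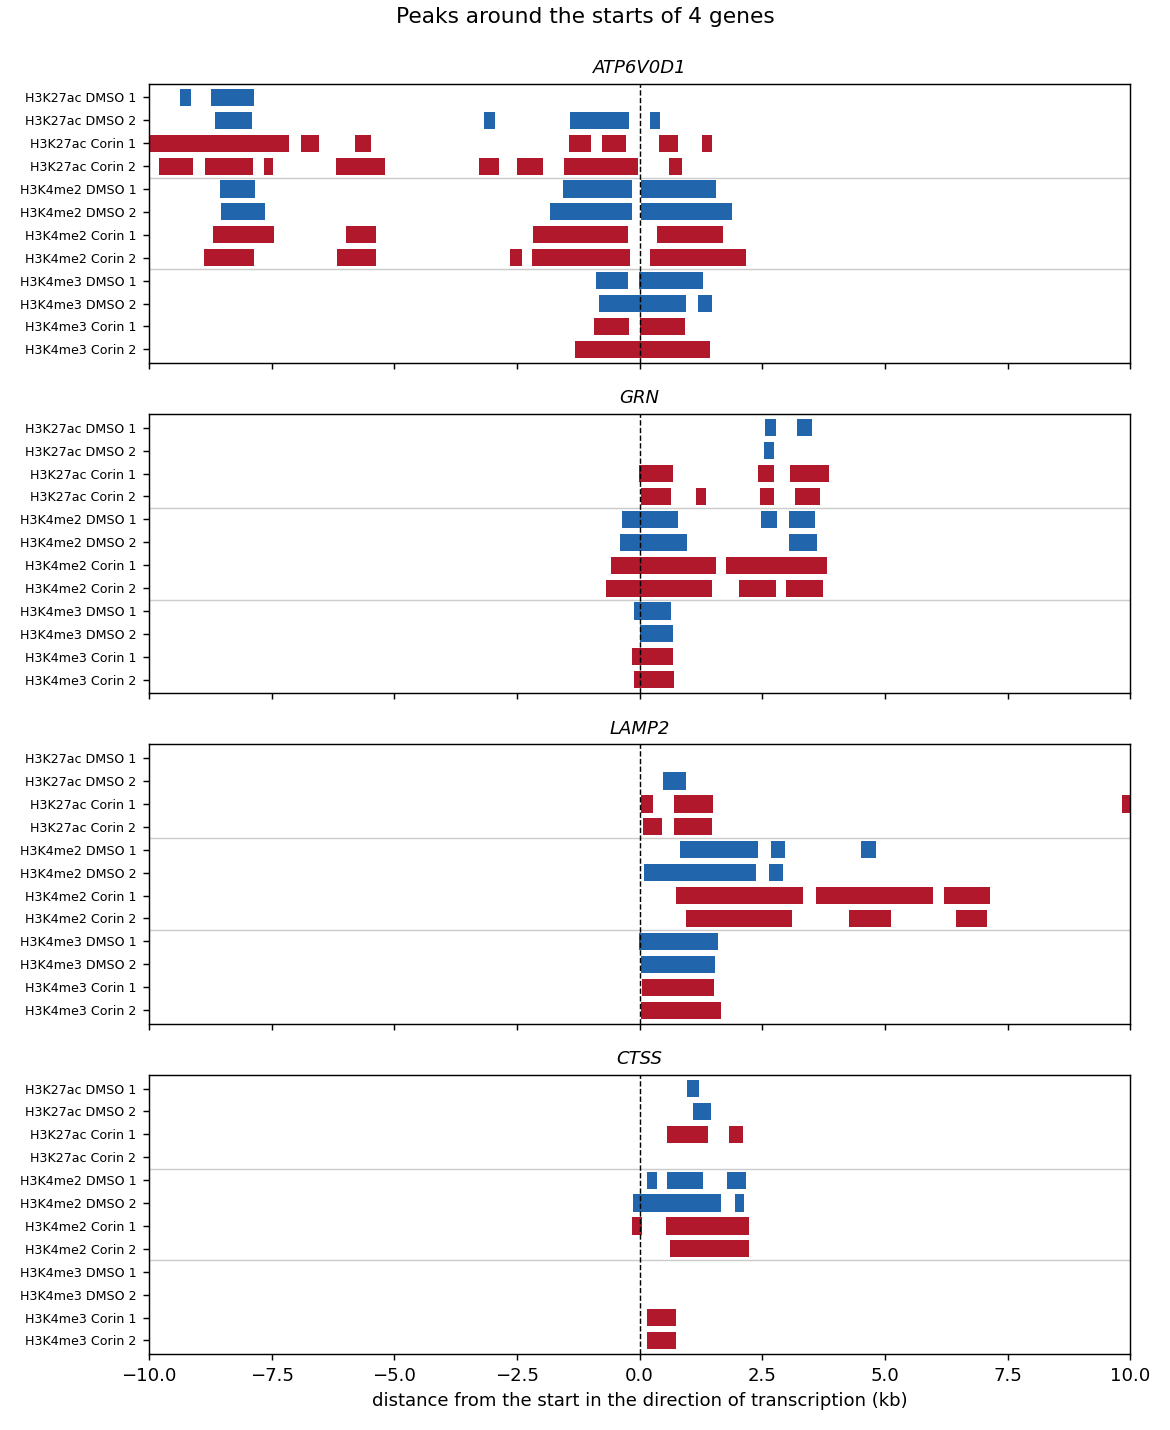
Peaks of each of the 12 libraries (bars, blue for DMSO and red for Corin) around the starts of ATP6V0D1, GRN, LAMP2 and CTSS, by distance from the start in the direction of transcription (kb). ATP6V0D1 has H3K27ac and H3K4me2 peaks about -5686 bp from the start in the Corin lists alone, beside other upstream peaks in all 4 lists of both marks, LAMP2 has H3K4me2 further into the gene after Corin, and CTSS has H3K4me3 in the Corin lists alone.

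Coverage was also counted with and without the promoter E-box. It was present in 10 genes, of which 5 were higher for H3K27ac, 8 for H3K4me2 and 1 for H3K4me3. Of the 24 matched genes without it, 14 were higher for H3K27ac, 11 for H3K4me2 and 9 for H3K4me3, where all genes gave 28.7%, 27.8% and 14.4%. No test was made of these differences. H3K27ac overlapped the RefSeq promoter by at least 1 bp in both Corin lists and neither DMSO list at 6 of the 34 genes, against 4.47% of 15345 promoters, a gap that was not tested; of the 6, NEU1 carries an E-box. Of the 300 bases it covered 204 and 287 at NEU1, 97 and 300 at NPC2 and 128 and 70 at GRN. At the other 3 it covered few of them in at least 1 list, with 34 and 32 bases at ATP6V0C, 19 and 107 at GUSB, and 4 and 298 at TFE3.

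For some genes the start in the gene record lies far from the start of the canonical transcript, and the windows then miss the canonical start. The distance is 162782 bp for LIPA, 111587 bp for ATP6V0D2, 21948 bp for CTSC and 20712 bp for SCARB2. Around the canonical start, SCARB2, which carries glucocerebrosidase to the lysosome, had H3K4me2 over 4445 and 3556 bp after Corin against 2008 and 2280 bp, and H3K4me3 in all 4 lists. LIPA, the acid lipase, had H3K4me2 over 2776 and 2505 bp against 1747 and 2052 bp, and H3K27ac over 1013 and 513 bp against none. The RefSeq promoter of LIPA used in the motif counts lies at the other start, 122 bp from that of the gene record. CTSC had H3K4me3 between 3072 and 3476 bp in all 4 lists. With canonical starts for all genes, 26 lysosomal genes were higher for H3K27ac (29.1% of all genes), 31 for H3K4me2 (28.2%) and 13 for H3K4me3 (14.7%). ATP6V0D2 still had no H3K27ac or H3K4me3 peak.

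Other genes of these pathways were counted in the same way within 10 kb, and limma called none of them without the replicate block. With it, limma called 3 of 20 hydrolases higher for H3K4me2, DNASE2 among them, SORT1 and 1 other sorting gene for H3K4me2, SORT1 and STAB1 for H3K27ac and CHIT1 for H3K4me2, where it called 6.3% of all genes tested for H3K4me2 and 4.69% for H3K27ac. STAB1 passed the filter through Corin alone, as did ACP5, 1 of the 3 hydrolases, and GGA2, the other sorting gene. The DMSO means of H3K4me2 were 0 bp at ACP5 and 498 bp at GGA2. The calls of STAB1, ACP5 and GGA2 are not taken as support. Over all genes 28.7% were higher for H3K27ac, 27.8% for H3K4me2 and 14.4% for H3K4me3, and several of the counts that follow are near those shares. Of 11 other pump genes, 4 were higher for H3K27ac, 8 for H3K4me2 and 4 for H3K4me3, with ATP6V0A1 higher in all 3 (H3K4me2 of 4907 and 3671 bp against 3200 and 3399 bp). Of 20 other lysosomal hydrolases, 8 were higher for H3K27ac, 6 for H3K4me2 and 3 for H3K4me3; DNASE2, which digests engulfed DNA, had 4562 and 4472 bp of H3K4me2 against 2210 and 3063 bp. Of 9 genes that sort enzymes by mannose phosphate, 4, 5 and 3 were higher. SORT1, a sorting receptor, had H3K4me3 over 1172 and 973 bp after Corin and none after DMSO, and H3K4me2 over 8956 and 8219 bp against 6344 and 5971 bp.

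Of 17 genes of the mTORC1 and folliculin pathway, which holds TFEB out of the nucleus, 8 were higher for H3K27ac, 6 for H3K4me2 and 3 for H3K4me3, and 2 were lower for each of the last pair of marks. Of 17 autophagy genes the counts were 9, 5 and 5, with ATG12 and BECN1 lower for H3K4me3; GABARAP, which joins autophagosomes to lysosomes, had 6905 and 5610 bp of H3K27ac against 2269 and 3560 bp. Of 12 macrophage scavenging genes, 8 had an H3K4me2 peak within 10 kb, 6 an H3K27ac peak and only APOE an H3K4me3 peak, while MSR1, MRC1, CD36 and GPNMB had no peak of any mark. Of the 12, 3 were higher for H3K27ac, 6 for H3K4me2 and 1 for H3K4me3, and none was lower. CHIT1, a chitinase of activated macrophages, had 2346 and 2530 bp of H3K4me2 after Corin against 566 and 1488 bp. STAB1, a scavenger receptor, had 4291 and 3277 bp of H3K27ac after Corin and none after DMSO, and AXL, a receptor for dying cells, 1643 and 916 bp against none. With lists of equal length STAB1 was still higher, while AXL had no H3K27ac peak in any list. At the matched number, where 16.8%, 21.6% and 13.5% of all genes were higher for the 3 marks, the higher counts for H3K27ac were 1 of the 11 pump genes, 3 of the 20 hydrolases, 4 of the 17 mTORC1 genes and 1 of the 12 scavenging genes, and were 4 of 9 for sorting and 7 of 17 for autophagy. For H3K4me2 they were then 5 for the pump and 2 for autophagy, and for H3K4me3 3 for autophagy; the other higher counts moved by at most 1.5 times.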

How the data were processed

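The 50 genes and the other gene lists were chosen with earlier results of these data known. Per the submitters' processing notes, Trim Galore, Bowtie2, Picard and MACS2 were used with GRCh38 (hg38); versions and settings are not given in the sources used here. Per the labels' protocols, reads were 150 bp paired ends; the depth of each library is otherwise unknown. The labels print the same 0.1 µM for DMSO, whose meaning is unclear. The authors deposited 1 peak list per library, each peak with its position and a score of at least 50 whose definition is not stated; it was used here to order peaks inside a list, to cut lists to the matched number and, as an alternative, as a minimum of 100 in each list.

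Coverage was the bp under peaks around the GENCODE 44 gene start of 20007 protein-coding genes. Per mark, limma 3.58.1 (R 4.3.3, trend) was fitted to log2(bp + 500) over genes with a mean of at least 500 bp, with Benjamini-Hochberg adjustment. Only genes passing this filter have log2 values here, and fold changes on this scale are understated for low genes. The code was checked on simulated data, where for H3K27ac within 10 kb it called none of the changed genes. Of genes shifted by 1 log2 unit it recovered 9% for H3K27ac within 2 kb. For H3K4me2 it recovered 36% within 10 kb and 42% within 2 kb, and for H3K4me3 68% and 69%. Of genes shifted by 2 units it recovered 42%, 75%, 85%, 90% and 92% in the same order. An absent call therefore does not exclude a change. Same-numbered libraries deviated together, with correlations of 0.216, 0.214 and 0.213 across genes for H3K27ac, H3K4me2 and H3K4me3. The numbers were therefore taken to pair the libraries, though no label says what they share. The block leaves very few residual degrees of freedom per gene, so its p-values rest largely on the spread shared over genes. Named members are, per mark, the 5 that gained and the 3 that lost most mean bp among those with groups apart, those called by limma in either fit, the 3 factors, and those with no peak; further members were named after their values were seen. The genes of the other lists that were lower are not all reported here.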

Additional observations from a re-analysis of the deposited data

How the results depend on the processing

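With the replicate block, limma called 3 members for H3K27ac and 9 for H3K4me2 within 10 kb, and on the bp scale 4 for H3K27ac (ATP6V0C, ATP6V0D1, CTSA and GRN, of which CTSA and GRN passed the filter through Corin alone), where 6.1% of all genes tested were called; the block changed no other member's call. At the matched number, 13 members were higher and 2 lower for H3K27ac within 10 kb, and 10 higher and 1 lower within 2 kb (13.1% and 1.45% of all genes); the median log2 difference of all genes tested within 10 kb was 0.34 there and 0.53 with all peaks. Peaks with a score of at least 100 gave 12 higher for H3K27ac within 2 kb (18.1% of all genes). Among the 30 members with no other start in the window, an alternative chosen after seeing the data and with fewer genes by construction, 10 were higher for H3K27ac and 15 for H3K4me2, and 0 lower for H3K4me3. Over gene bodies 2 were lower for H3K4me2 (3.41% of all genes), and ATP6V0D1 turned to -36 bp for H3K4me2; the cause was not tested. Leaving out 1 library at a time, which leaves fewer libraries to separate, gave within 10 kb 26 to 34 higher and 0 to 2 lower for H3K27ac, 30 to 38 and 1 to 7 for H3K4me2, and 16 to 26 and 4 to 10 for H3K4me3; of all genes 33.2% to 41.2%, 33.1% to 46.5% and 20.6% to 27.7% were then higher, and 0.98% to 3.77%, 5.01% to 15% and 10.1% to 14.8% lower. Within 2 kb it gave 22 to 31 and 0 to 3, 22 to 27 and 4 to 10, and 17 to 25 and 5 to 10 in the same order, where 26% to 33.1%, 22.2% to 35.9% and 17.8% to 24% of all genes were higher and 0.985% to 4.12%, 7.8% to 19.2% and 9.92% to 14.1% lower. limma then called 0 to 7 members for H3K27ac within 10 kb, all 7 without DMSO replicate 2 (ATP6V0C, ATP6V0D1, CLN3, CTSA, CTSZ, LAMP2 and TCIRG1, of which CTSA and LAMP2 passed the filter through Corin alone; 11.1% of all genes tested were called there), and none for the other marks or within 2 kb; a lone library is then assumed to vary like the other group. The higher count moved by over 1.5 times without Corin replicate 1 for H3K4me3 (26 within 10 kb, 25 within 2 kb), without DMSO replicate 2 for H3K4me3 (22 and 22) and H3K4me2 within 2 kb (26), and without Corin replicate 2 for H3K4me2 within 2 kb (27). The lower count moved as far without Corin replicate 1 or DMSO replicate 1 for every mark, without DMSO replicate 2 for H3K4me2 and H3K4me3, and without Corin replicate 2 for H3K4me3 and, within 2 kb, H3K4me2. Over all alternatives 127 member counts were within 1.5 times of the value given and 38 were not, and of the differences of named genes 234 moved by under 1 SD, 29 by more and 1 changed sign. Read depth per library is unknown, so absence of a peak sets no limit on the mark.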
